A study of Mus musculus with 12 samples.

Results

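STAT5 occupancy was examined at 5 genes that govern cell survival or differentiation, Mcl1, Bcl2l1, Bcl2, Bcl2l11 and Id1, in mouse embryonic fibroblasts, which are connective tissue cells grown from fetuses of day 12.5 to 13.5. The loci were taken as fixed windows of the mm9 genome, and a region belonged to a locus when its centre lay inside the window. The windows were chr3 from 95.4 to 95.51 Mb for Mcl1 (110 kb), chr2 from 152.52 to 152.7 Mb for Id1 and Bcl2l1 together (180 kb), chr1 from 108.4 to 108.65 Mb for Bcl2 (250 kb) and chr2 from 127.9 to 128.04 Mb for Bcl2l11 (140 kb). They held 119 of the 156642 regions in the 3 lists analysed: 11 of 13278 in wild-type cells, and 51 of 71561 and 57 of 71803 in replicates 1 and 2 of cells overexpressing STAT5A.

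All cells came from a C57BL/6 background and were used at passages 9 to 10. After 5 h without serum they received growth hormone (1 µg/ml, 45 min), and chromatin was immunoprecipitated with an antibody to STAT5. The wild-type group had 1 library. The overexpression group carried the genotype STAT5A-Stat5-/-, that is, STAT5A overexpressed in cells without their own Stat5 genes, with 2 libraries, of which the second is titled as a repeat. How STAT5A was introduced, and whether the libraries came from separate cultures, is not given in the sources used here. Of the 12 libraries in the series, the IgG, unstimulated and Stat5-null ones have no list analysed here, so no background without STAT5 stands beside the values. The labels tie the list of replicate 2 to the unstimulated as well as the stimulated repeat library. The list was taken as the stimulated one because its track name carries growth hormone.

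Growth hormone and cytokines act through Janus kinases, which phosphorylate the latent factors STAT5A and STAT5B, and these then pair up and bind DNA. Mcl1, Bcl2l1 (which encodes BCL-XL) and Bcl2 encode proteins that hold back mitochondrial apoptosis. Bcl2l11 encodes BIM, a BH3-only protein that promotes apoptosis by binding those guardians. Id1 encodes a helix-loop-helix protein without a DNA-binding region, which keeps its partners from DNA. STAT5 is known as an activator of Bcl2l1 and Mcl1 in blood cells.

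The 250 bases before a transcription start are given for 4 of the genes, to let the STAT recognition sequence be compared with the promoters at these loci. They are RefSeq sequences of build GRCm38.p6, whose positions are not comparable with the mm9 positions of the regions, so no region is placed on them. Capitals mark each stretch that matches TTCNNNGAA with at most 1 mismatch among its 6 fixed letters. That motif reads the same on both strands, and in Bcl2 there are 2 such stretches, which overlap.

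Mcl1, chr3:95658471-95658720 (+ strand): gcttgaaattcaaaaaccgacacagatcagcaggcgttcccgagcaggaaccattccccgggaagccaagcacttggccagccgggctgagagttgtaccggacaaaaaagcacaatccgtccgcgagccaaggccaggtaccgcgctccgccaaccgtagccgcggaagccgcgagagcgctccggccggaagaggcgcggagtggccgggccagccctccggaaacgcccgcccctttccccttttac

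Bcl2l1, chr2:152831729-152831978 (- strand): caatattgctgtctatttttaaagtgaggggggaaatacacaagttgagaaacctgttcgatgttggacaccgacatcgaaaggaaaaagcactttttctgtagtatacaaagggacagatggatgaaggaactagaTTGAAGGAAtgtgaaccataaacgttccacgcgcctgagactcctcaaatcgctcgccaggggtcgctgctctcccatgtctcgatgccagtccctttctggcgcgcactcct

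Bcl2, chr1:106714291-106714540 (- strand): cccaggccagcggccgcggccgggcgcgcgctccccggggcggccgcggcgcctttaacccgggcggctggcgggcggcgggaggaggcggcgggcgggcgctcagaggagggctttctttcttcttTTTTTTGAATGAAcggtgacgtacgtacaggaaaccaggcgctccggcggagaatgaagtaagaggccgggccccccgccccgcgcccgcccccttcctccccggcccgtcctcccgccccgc

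Bcl2l11, chr2:128125788-128126037 (+ strand): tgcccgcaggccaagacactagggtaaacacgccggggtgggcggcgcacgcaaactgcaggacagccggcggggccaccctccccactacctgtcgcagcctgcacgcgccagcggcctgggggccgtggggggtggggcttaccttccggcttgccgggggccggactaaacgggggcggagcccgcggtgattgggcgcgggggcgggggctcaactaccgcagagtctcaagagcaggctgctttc

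RefSeq promoters were found for 4 of the 5 genes, 7 promoters in all, and not for Id1. None of the 7 held an exact TTCNNNGAA between 250 bases before and 50 bases after the start, where 8.3% of all 32851 promoters did. With 1 mismatch allowed, and in the 250 bases before the start, 4 of the 7 had a match, against 65.8% of all promoters. The matches were in Bcl2 and in each of the 3 Bcl2l1 promoters, and neither Mcl1 nor the 2 Bcl2l11 promoters had one. Among related genes (BCL2 relatives such as Bax, Bad and Bbc3, and Id2, Id3 and Id4), 12 of 14 were matched, with 17 promoters, of which 0 held the exact motif and 13 held it with 1 mismatch. These windows are short, and a motif elsewhere at the loci would not be seen here.

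Regions were present in the overexpressing cells at every window and in wild-type cells at 3 of the 4. Presence in the overexpressing cells was the common case, since the median autosomal window of these lengths held 2 to 6 regions in their lists. In the order wild type, replicate 1, replicate 2, the Mcl1 window held 4, 11 and 14 regions and the Id1-Bcl2l1 window 6, 25 and 27. The pro-survival Bcl2 window held 1, 8 and 9 regions, and the window of the pro-apoptotic Bcl2l11 held 0, 7 and 7. At each locus both overexpression lists had more regions than the wild-type list, and the replicates differed by at most 3 regions.

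**Figure D1:**
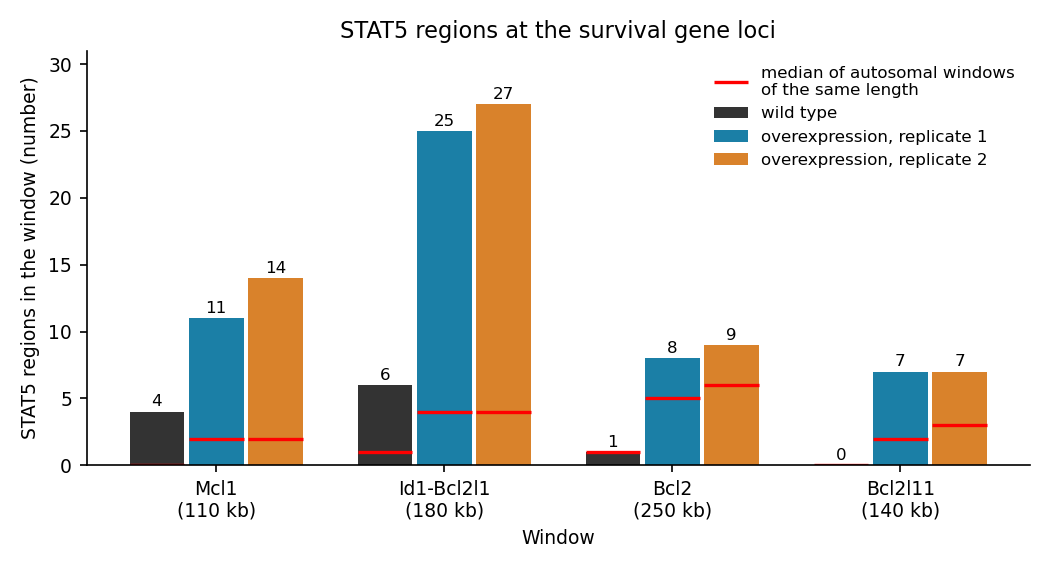
Number of STAT5 regions (bars, with the number above) in each window in wild-type cells and in the 2 overexpression replicates, with the window length in brackets. Red lines give the median number over all autosomal windows of the same length, which is 0 for wild type at the Mcl1 and Bcl2l11 lengths; Id1-Bcl2l1 has the tallest bars in all lists and Bcl2l11 has no wild-type bar.

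Over the 4 windows together the overexpressing cells had 54.0 ± 4.24 regions (mean ± SD, n = 2). This was 4.91 times the wild-type value, where the whole lists have a ratio of 5.40. The ratio was 3.13 at Mcl1, 4.33 at Id1-Bcl2l1 and 8.50 at Bcl2, where it rests on a single wild-type region. At Bcl2l11 no ratio can be given, since the wild-type list has no region there. Covered length was also greater in the overexpressing cells at each locus. In the same order, regions covered 2044, 4276 and 7394 bp of the Mcl1 window. At Id1-Bcl2l1 they covered 2089, 9812 and 12835 bp, at Bcl2 548, 3186 and 3177 bp, and at Bcl2l11 0, 2980 and 3246 bp. Over all windows covered length was 5.01 times that of wild type (4.33 and 5.69 for the replicates), against 5.85 over the whole lists. No test between genotypes was run, since wild type has 1 library and the spread on that side is unknown. With the overexpression lists cut to as many of their widest regions as wild type has, the windows held 11, 6 and 16 regions and the ratio was 1.0. That cut sets the whole-list ratio to 1.0 by construction, and the value for the windows averages replicates on either side of wild type. Neither the depth of a library nor the way its list was made is known for all of the libraries.

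The loci were set beside all consecutive autosomal windows of the same length. Of 21877 windows of 110 kb, 38.9% held at least 1 wild-type region, and 1.69% held 4 or more, as Mcl1 did. The median such window held 2 regions in each overexpression list, and 6.04% and 1.92% held as many as Mcl1 in replicates 1 and 2. Mcl1 thus held more regions than 98.3, 94.0 and 98.1% of windows in wild type and replicates 1 and 2.

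Of 13367 windows of 180 kb, 53.1% held a wild-type region, and the median window held 1 in wild type and 4 in each overexpression list. The 6, 25 and 27 regions of Id1-Bcl2l1 were reached in 0.980%, 0.980% and 0.254% of them. Of 9620 windows of 250 kb, 63.3% held a wild-type region, as Bcl2 did with 1. Its 8 and 9 overexpression regions stood beside medians of 5 and 6, and were reached in 40.2% and 37.3% of windows. Bcl2 was therefore an ordinary window for its length, while Id1-Bcl2l1 held more regions than at least 99.0% of windows in each list. At the 140 kb of Bcl2l11, 45.9% of 17186 windows held a wild-type region, so that most, like Bcl2l11, held none. Its 7 regions in each replicate were reached in 24.1% and 25.3% of windows, with medians of 2 and 3. These shares describe the lists, and neighbouring windows are not independent. The tiles take in gene-poor stretches too, and whether gene density sets these loci apart was not tested.

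Regions at Mcl1 were denser inside the window than before it, and they went on past its end. The 110 kb before it held 0, 0 and 1 regions (wild type, replicates 1 and 2) and the 110 kb after it 3, 10 and 11. For Id1-Bcl2l1 the flanks of 180 kb held 2, 5 and 14 regions before and 1, 9 and 8 after, fewer than the window in all lists. Around Bcl2, by contrast, the 250 kb before held 2, 11 and 12 regions, more than the window itself, and the 250 kb after held 1, 3 and 5. Bcl2l11 had 0, 1 and 2 regions before and 1, 4 and 6 after. Among members, the region nearest to a window edge had its centre 118 bp inside the end of Id1-Bcl2l1 in replicate 2, and the nearest one left out lay 924 bp beyond the same edge.

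At Mcl1, the gene for a short-lived apoptosis inhibitor, the broadest region belonged to replicate 2, at chr3:95462423-95463608 and 1186 bp wide. Replicate 1 had a pair of regions in its place, chr3:95462373-95462941 (569 bp) and chr3:95463103-95463711 (609 bp), and the nearest wild-type region lay 7172 bp from the first of them. This was the broadest site of the window. It had no wild-type region, like most regions of the overexpressing cells, of which 6.55% in replicate 1 and 5.25% in replicate 2 overlapped wild type over the whole lists. Of the 4 wild-type regions at Mcl1, 3 overlapped a replicate 2 region and 1 overlapped replicate 1, beside 29.9% and 32.3% of the whole wild-type list.

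The widest wild-type region there, chr3:95479243-95479881 (639 bp), lay wholly inside a 713 bp region of replicate 2, and only 2.24% of all wild-type regions were wider. The nearest replicate 1 region lay 1111 bp away. The wild-type region at chr3:95454583-95455200 (618 bp) shared 578 bp with replicate 2 and lay 7172 bp from replicate 1. Both of these broad wild-type regions were thus found in only 1 of the 2 overexpression lists. A narrow wild-type region of 239 bp, chr3:95478123-95478361, was inside a replicate 2 region of 588 bp and touched a replicate 1 region by 9 bp, with summits 280 bp apart. The last, chr3:95402543-95403090 (548 bp), was 7002 bp from the nearest replicate 2 region and 59282 bp from replicate 1. Within 12 kb of the window, chr3:95468099-95479912, lay 2 wild-type regions and 5 of each overexpression replicate.

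**Figure D2:**
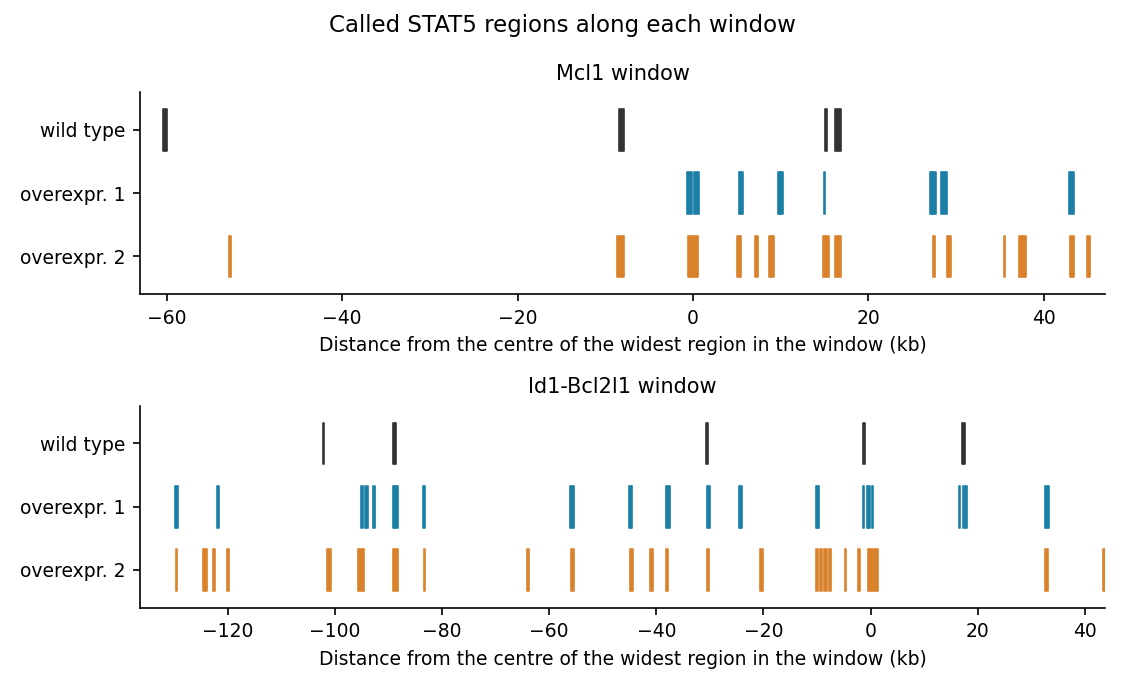
Positions of the STAT5 regions in the Mcl1 and Id1-Bcl2l1 windows, 1 row for each list, in kb from the centre of the widest region of the window, which is in replicate 2 in both. Bars are the regions with a thin outline; most Mcl1 regions lie at or to the right of that centre, and Id1-Bcl2l1 regions spread over the window with a dense group just left of it.

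The shared Id1-Bcl2l1 window cannot be split between its genes, because no gene positions of build mm9 were used. In the RefSeq gene order Cox4i2 lies between Id1 and Bcl2l1, Mcts2 and H13 come before, and Tpx2 follows, so some regions may lie at those genes. The same caution applies to the other windows, whose regions were not assigned to genes either. The adjoining genes in that order are Ensa and Adamtsl4 for Mcl1, Phlpp1 and Kdsr for Bcl2, and Acoxl and Spdye4c for Bcl2l11. Of the 6 wild-type regions at Id1-Bcl2l1, 5 overlapped replicate 1 and 3 overlapped replicate 2, beside 32.3% and 29.9% of the whole wild-type list. The site most fully shared was chr2:152567073-152568120, where wild type had 2 regions (239 and 318 bp), replicate 1 had 2 (439 and 598 bp) and replicate 2 had a single region of 952 bp. At that site the first wild-type summit lay 65 bp from the summit of the first replicate 1 region.

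A second site in all lists, chr2:152625513-152626231, had widths of 468, 509 and 405 bp, with wild-type and replicate 1 summits 125 bp apart. The wild-type regions at chr2:152654963-152655190 (228 bp) and chr2:152673423-152673920 (498 bp) overlapped replicate 1, with the nearest summits 60 and 100 bp apart. The nearest replicate 2 regions lay 591 bp from the former and 14991 bp from the latter. In the remaining case, chr2:152554013-152554350 (338 bp), wild type overlapped neither, and a replicate 2 region of 605 bp began 407 bp away. Presence in wild type and in both overexpression lists thus held for 3 of the 6 wild-type regions, which make up 2 sites. Over the whole wild-type list it held for 23.3% of regions.

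Broad sites of the overexpressing cells at Id1-Bcl2l1 included chr2:152655782-152656799 (1018 bp) and chr2:152560699-152561707 (1009 bp), both in replicate 2. Replicate 1 had 2 narrower regions inside the first, of 429 and 199 bp, and 1 of 358 bp inside the second. In replicate 1 the widest region of the window was chr2:152600183-152600990 (808 bp), which held a replicate 2 region of 481 bp. No wild-type region overlapped any of these 3 sites. Over the whole lists only 6.55% of replicate 1 and 5.25% of replicate 2 regions overlapped wild type. The closest packing was at chr2:152646043-152657614, with 1 wild-type region, 6 of replicate 1 and 9 of replicate 2. This stretch of 12 kb, like the one at Mcl1, was chosen after the positions were seen.

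At Bcl2, an apoptosis inhibitor of the mitochondrial membrane, wild-type cells had the single region chr1:108408053-108408600. It was 548 bp wide, wider than 92.1% of the wild-type list or equal to it, and lay 35272 bp from the nearest replicate 1 region and 50600 bp from replicate 2. The replicates shared 4 of 13 sites (30.8%), none of which wild type held, beside 24.1% of all sites. This was the common case, since over the whole lists 27342 sites were in both replicates without wild type and 2984 in all lists. The broadest of the 4 was chr1:108539743-108540643, with a 740 bp region in replicate 2 and regions of 289 and 428 bp in replicate 1. The others were at chr1:108526610-108527090 (338 and 430 bp in replicates 1 and 2), chr1:108576113-108576600 (488 and 188 bp) and chr1:108608112-108608570 (398 and 436 bp). Wild-type and overexpressing cells had no site in common at Bcl2, where only 1 wild-type region could be shared, and 38.9% of all wild-type regions overlapped an overexpression list.

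Bcl2l11, the BIM gene, had no wild-type region in its window, and the nearest wild-type region to any member lay 128472 bp away. The replicates shared 4 of 9 sites (44.4%), none of which wild type held, beside 24.1% of all sites. The broadest was chr2:127948762-127949982, 1221 bp in replicate 2, the widest of all 119 regions, around a 538 bp region of replicate 1. Of the replicate 2 list, 1.07% of regions were wider. A second shared site, chr2:127960231-127960821, had a 370 bp region in replicate 2 and regions of 169 and 269 bp in replicate 1. The other two lay side by side near the end of the window, at chr2:128035489-128036171 (569 and 616 bp in replicates 1 and 2) and chr2:128036583-128037150 (568 and 380 bp). In replicate 1 a 478 bp region at chr2:127987073-127987550 had its nearest replicate 2 region 26472 bp away.

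**Figure D3:**
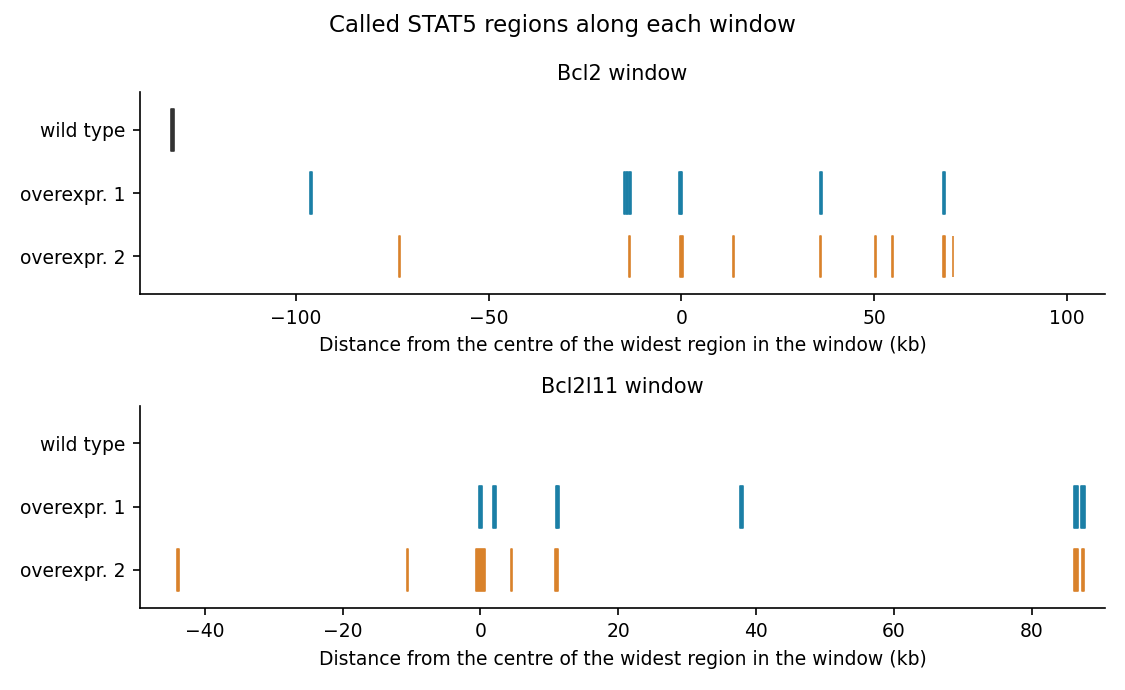
Positions of the STAT5 regions in the Bcl2 and Bcl2l11 windows, drawn as for the other loci, in kb from the centre of the widest region of each window. The wild-type row has 1 bar at Bcl2, apart from all others, and none at Bcl2l11, while the overexpression rows share 4 sites in each window.

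Overlap between lists was counted over all member regions, with 1 bp as the minimum. Of the 11 wild-type regions 8 (72.7%, exact Clopper-Pearson 95% interval 39.0 to 94.0%) overlapped at least 1 overexpression list, beside 38.9% of the whole wild-type list. In both lists it was 4 of 11 (36.4%, interval 10.9 to 69.2%), beside 23.3%. Each replicate on its own overlapped 6 of the 11 (54.5%), where the whole list gave 32.3% for replicate 1 and 29.9% for replicate 2. The 8 regions lay at Mcl1 (3) and Id1-Bcl2l1 (5). The lower bound of the first interval is close to the share of the whole list, and the intervals cover counting error only. Where the overlap had to cover 50% or more of each region, 0 of the 11 were in both lists and 6 were in at least 1.

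Seen from the overexpressing cells, 7 of 51 member regions of replicate 1 (13.7%, interval 5.70 to 26.3%) and 5 of 57 of replicate 2 (8.77%, interval 2.91 to 19.3%) overlapped a wild-type region. The whole lists gave 6.55% and 5.25%, within these intervals. The intervals take regions as independent, which neighbouring pieces of the same site are not. At Id1-Bcl2l1 it was 6 of 25 in replicate 1 and 2 of 27 in replicate 2, and at Mcl1 1 of 11 and 3 of 14. So the replicates differed in which locus gave most of their overlap with wild type, a difference that was not tested. At Bcl2 and Bcl2l11 the number was 0 in both.

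Overlap between the replicates was counted next. In replicate 1, 32 of 51 member regions (62.7%, interval 48.1 to 75.9%) overlapped replicate 2, beside 51.9% of its whole list. In replicate 2, 24 of 57 (42.1%, interval 29.1 to 55.9%) overlapped replicate 1, beside 43.1%. By locus the counts for replicate 1 were 7 of 11 at Mcl1, 15 of 25 at Id1-Bcl2l1, 5 of 8 at Bcl2 and 5 of 7 at Bcl2l11. For replicate 2 they were 5 of 14, 11 of 27, 4 of 9 and 4 of 7. The whole-list shares lie inside both intervals over the 4 windows. Under a 50% reciprocal rule, 14 regions of each replicate matched, 27.5% and 24.6%, beside 32.7% and 32.6% of the whole lists.

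When regions that share at least 1 bp across lists were merged, the windows held 78 sites. Of these 3 were in all lists (3.85%, beside 2.63% of 113354 sites in all), 21 in both overexpression lists without wild type (26.9%, beside 24.1%), 2 in wild type and replicate 1, 2 in wild type and replicate 2, and 3 in wild type alone (3.85%, beside 7.15%). A further 16 were in replicate 1 alone (20.5%, beside 29.1%) and 31 in replicate 2 alone (39.7%, beside 35.3%). In all, 50 of the 78 sites (64.1%) were found in only 1 list, beside 71.6% of all sites. Sites in all lists were 1 at Mcl1 and 2 at Id1-Bcl2l1.

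**Figure D4:**
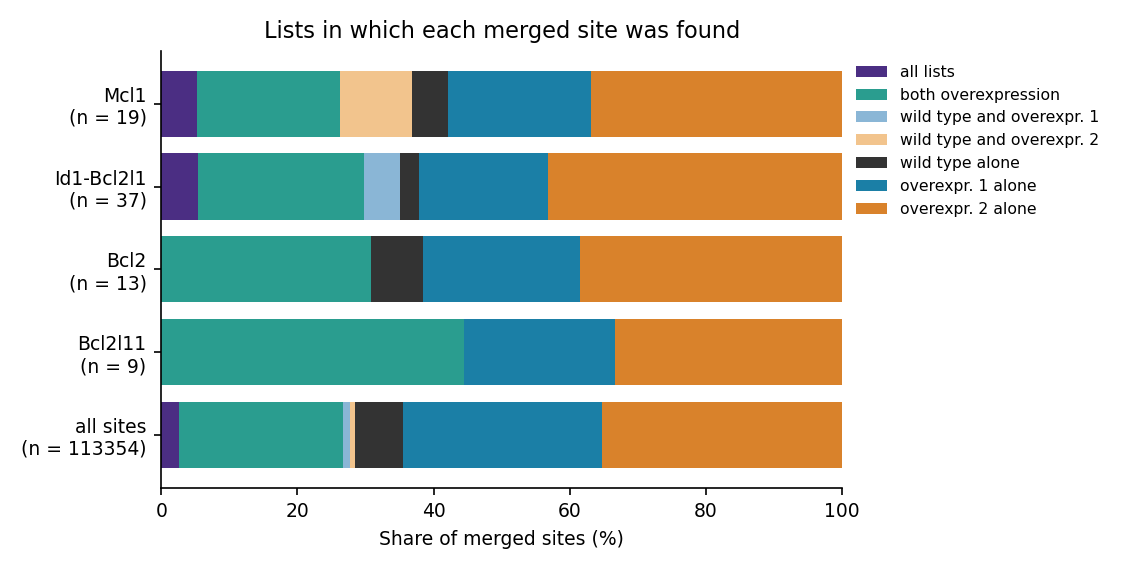
Share of merged sites (horizontal axis, in %) by the lists in which they were found, for each window and for all sites of the genome, with the number of sites in brackets. Sites of replicate 2 alone are the largest class in every bar except Bcl2l11, where sites of both replicates are, and sites in all lists appear at Mcl1 and Id1-Bcl2l1 but not at Bcl2 or Bcl2l11.

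Widths of the members ranged from 228 to 639 bp in wild type, from 149 to 808 bp in replicate 1 and from 168 to 1221 bp in replicate 2. Their medians were 468, 389 and 408 bp, beside 379, 398 and 378 bp over the whole lists. At Mcl1 the wild-type regions measured 239, 548, 618 and 639 bp, so 3 of the 4 were wider than the list's median. At Id1-Bcl2l1 they were narrower, with a median of 328 bp, and 2 of the 6 exceeded the list's median of 379 bp. The replicates differed at the same loci: the median at Mcl1 was 288 and 450 bp in replicates 1 and 2, and at Id1-Bcl2l1 it was 369 and 439 bp. At Bcl2 (403.5 and 293 bp) and Bcl2l11 (478 and 370 bp) replicate 1 had the wider median. All 4 member regions over 1000 bp were in replicate 2, whose whole list has 2.85% of such regions, against 0.648% in replicate 1 and 0.00753% in wild type.

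**Figure D5:**
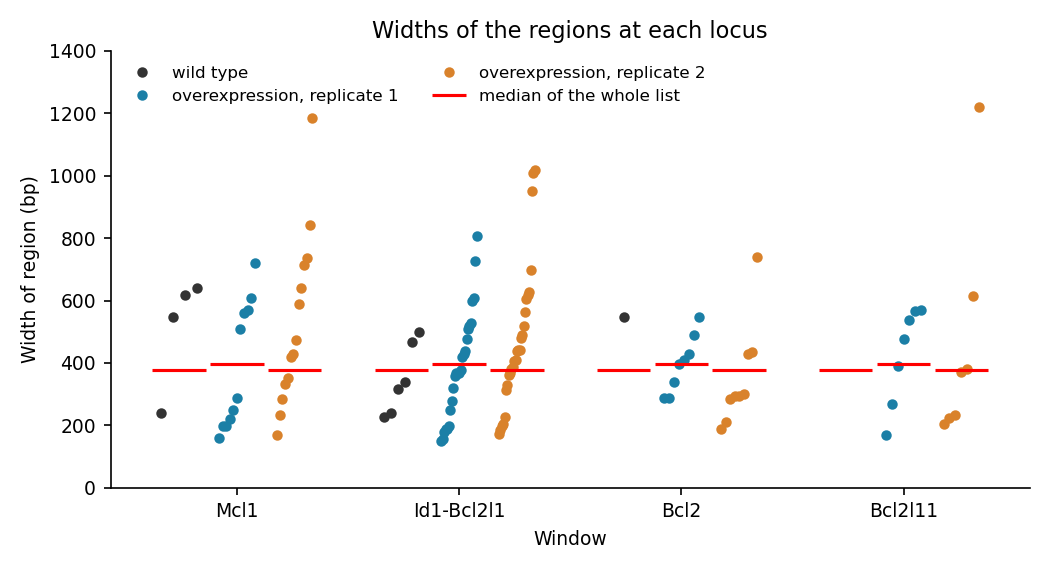
Width of each member region in bp (points) by window and list, with the median of each whole list as a red line. Points are spread sideways in order of width only to keep them apart; the 4 points above 1000 bp are all from replicate 2, and Bcl2l11 has no wild-type point.

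Some counts depend on how the lists were cut into regions. In replicate 1, 11 of 47 gaps between neighbouring members were of 100 bp or less (23.4%, beside 20.1% of the whole list), and 10 of them were of exactly 11 bp. In replicate 2 gaps of 100 bp or less were 3 of 53 (5.66%, beside 1.40%), and none measured 11 bp. Wild type had 1 of 8 (12.5%, beside 2.54%), the gap of 21 bp in the site shared by all lists at Id1-Bcl2l1. Gaps of 11 bp were a trait of the whole replicate 1 and wild-type lists, but not of replicate 2. They made up 12778 of 14399 such gaps in replicate 1, 241 of 337 in wild type and 6 of 1007 in replicate 2. Joined across gaps of up to 100 bp, a step chosen after the lists were seen, the members numbered 10 (wild type), 40 (replicate 1) and 54 (replicate 2). By locus this left 4, 8 and 14 at Mcl1, 5, 19 and 24 at Id1-Bcl2l1, 1, 7 and 9 at Bcl2 and 0, 6 and 7 at Bcl2l11, in the order wild type, replicate 1, replicate 2. The order of the loci and the higher numbers in the overexpressing cells stood after joining, and the gap between replicates at Mcl1 grew from 3 to 6 regions. Joining acted on the whole lists in the same way. It took replicate 1 from 71561 to 57162 regions, replicate 2 from 71803 to 70796 and wild type from 13278 to 12941. The wider gap at Mcl1 is therefore not particular to that locus.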

How the data were processed

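The authors deposited each region as a start and an end on build mm9, without height, score or p-value, per the file headers, and gave a summit for wild type and replicate 1. MACS stands in the region names of replicate 2. Which program made the other lists, and with which aligner, control and cut-off, is not given in the sources used here. Depth is unknown. Positions were treated as BED intervals and printed from 1. Edges of all 51 replicate 1 and 11 wild-type members lie on a 10 bp grid (tolerance 1 bp at the end). Those of 3 of 57 replicate 2 members do. Over the whole lists the shares are 100% for replicate 1, 87.1% for wild type and 1.95% for replicate 2. So the lists were made differently.

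Regions were assigned by centre, and overlap needed 1 bp. Overlap counts equalled those of bedtools 2.31.1, and the functions were tested on simulated data. Windows of equal length were tiled from the first to the last region of each of 19 autosomes. Scripts used Python 3.11.15 with scipy 1.17.1, pandas 2.3.3, numpy 2.4.6 and matplotlib 3.10.9. The named genes are the 5 members, and every region centred in a window was counted. Members, lists and tests were chosen with earlier results of these data known. No mm9 annotation was used, so related genes have promoter counts alone.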

Additional observations from a re-analysis of the deposited data

How the results depend on the processing

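Of 48 alternative values for the 6 summary results, 8 could not move: the 11 wild-type members are all on the 10 bp grid, and leaving out 1 of 2 replicates always keeps a ratio within their SD (4.64 and 5.18 for regions, 4.33 and 5.69 for covered length). Of the other 40, 30 stayed within 1 SD of the replicates or the 95% interval and 10 moved. Larger or shorter windows, the wider part of each list and joined regions (added after seeing the data) moved none. Wild-type overlap with any overexpression list, 72.7%, was 54.5% when replicate 1 or replicate 2 was left out. Cutting the overexpression lists to the wild-type length, widest first, gave ratios of 1.0 for regions and 1.80 for covered length, and shares of 9.09% for wild type in both lists, 33.3% for replicate 1 in replicate 2 and 12.5% for the reverse. This setting shortens the lists, and brings the region ratio of the whole lists to 1.0, by construction. With overlap of at least 50% of both regions those shares were 0%, 27.5% and 24.6%, and with centres within 200 bp the first 2 were 9.09% and 43.1%. The 50% rule can only lower a share. No paired analysis was possible because wild type has a single library to set against 2. Depth is unknown and limits any reading of region numbers, and 11 wild-type regions give wide intervals. All intervals take regions as independent, so they may be too narrow where a site was cut into several regions.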
